A study of Mus musculus with 24 samples.

Results

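The water, proton and salt handling of the colon rests on enzymes and channels, 10 of whose genes were followed by name across the 24 colon libraries of a mouse colitis study. They are the carbonic anhydrases Car1, Car2 and Car4, the aquaporins Aqp4 and Aqp8, the chloride and bicarbonate channels Cftr and Best2, and Scnn1a, Scnn1b and Scnn1g, which encode the subunits of the epithelial sodium channel ENaC. The files list 43280 gene symbols, of which 14773 had enough counts to be tested. All 10 genes were among these. RNA came from the distal colon of female SCID mice (C.B-17/Icr-scid/scid, bought at 7 weeks of age), which lack mature T and B cells, with 4 libraries in each of 6 groups. Normal mice were left untreated. Mice of the other 5 groups had been injected with CD4+ T cells that came from BALB/c spleens and had been activated with concanavalin A and interleukin-2. Vehicle mice had the T cells and 0.5% methylcellulose. MEKi 0.3 and MEKi 1 mice had the T cells and 0.3 or 1 mg/kg of an inhibitor of the kinase MEK, taken by mouth daily on days 17 to 27 in microparticles made to release in the gut. Isotype and anti-TNF mice had the T cells and, from day 17 on, a control antibody or an antibody against TNFa, injected into the abdomen at 0.1 mg per mouse every 4 days. Colons of the 5 groups with T cells were taken on day 28. The harvest day of Normal is not given, so whether it differs is not known. Normal differs from Vehicle both in the T cells and in the methylcellulose, so the effects of these cannot be told apart. Likewise, Normal differs from Isotype both in the T cells and in the antibody injections. A group given microparticles without the inhibitor was not analysed here. The effects of the inhibitor and of its microparticles therefore cannot be told apart in the comparisons of MEKi 0.3 and MEKi 1 with Vehicle. The labels do not say whether each library is 1 mouse, and p-values measure the spread between these libraries.

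As background, carbonic anhydrases turn carbon dioxide and water into bicarbonate and protons. In colonocytes, the absorptive cells of the colon, Car1 and Car2 are cytosolic enzymes and Car4 is tethered to the cell surface, and together they feed the exchangers that take up salt and release bicarbonate. Aquaporins are water channels: Aqp8 is found in the surface epithelium and Aqp4 in the basolateral membrane. Cftr releases chloride and bicarbonate into the crypt, Best2 passes bicarbonate in goblet cells, which make mucus, and ENaC absorbs sodium under the hormone aldosterone. Diarrhoea in colitis is known to go along with a loss of salt and water absorption.

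Promoters from RefSeq (build GRCm38.p6, the assembly also called mm10) were matched for 5 of the 10 genes, over 250 bases before to 50 bases after the annotated start. The 3 printed here belong to genes that were lower in Vehicle than in Normal and higher at 1 mg/kg of the MEK inhibitor than in Vehicle. Capitals mark every match to 1 of 3 motifs on either strand: the GC box GGGCGG, the motif TTTATNG bound by the intestinal CDX factors, and the TATA box TATAAA.
Car4 (chr11:84957504-84957803, + strand): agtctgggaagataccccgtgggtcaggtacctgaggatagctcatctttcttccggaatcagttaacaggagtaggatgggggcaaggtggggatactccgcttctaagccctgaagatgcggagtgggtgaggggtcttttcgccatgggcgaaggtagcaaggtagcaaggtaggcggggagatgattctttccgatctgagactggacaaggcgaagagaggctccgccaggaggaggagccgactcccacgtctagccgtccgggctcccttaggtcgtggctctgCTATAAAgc
Aqp8 (chr7:123462044-123462343, + strand): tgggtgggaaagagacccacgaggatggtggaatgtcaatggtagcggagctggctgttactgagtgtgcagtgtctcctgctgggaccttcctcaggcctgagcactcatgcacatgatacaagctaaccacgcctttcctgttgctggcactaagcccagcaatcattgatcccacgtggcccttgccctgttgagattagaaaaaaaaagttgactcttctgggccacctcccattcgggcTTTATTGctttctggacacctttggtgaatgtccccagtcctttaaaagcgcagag
Cftr (chr6:18170437-18170736, + strand): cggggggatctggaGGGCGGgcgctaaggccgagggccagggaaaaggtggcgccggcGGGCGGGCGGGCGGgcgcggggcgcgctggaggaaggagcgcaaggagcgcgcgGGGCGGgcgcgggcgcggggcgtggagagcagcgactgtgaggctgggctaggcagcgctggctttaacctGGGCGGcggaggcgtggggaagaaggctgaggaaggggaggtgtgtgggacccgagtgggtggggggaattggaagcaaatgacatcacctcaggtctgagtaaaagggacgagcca
In Aqp8 the match to the CDX motif began 6 bases before the start. In Car4 the CDX match began 41 bases after the start and overlapped a TATA box match that began 1 base later. The Cftr promoter held 6 GC boxes and 31 CG dinucleotides, and neither of the other motifs. Of 27025 mouse promoters of the same length, 35.9% held the GC box, 11.3% the CDX motif and 14.2% the TATA box, and the median promoter held 7 CG dinucleotides. The promoters of Scnn1g and Scnn1b held 2 and 1 GC boxes. These matches describe letters and are not binding sites.

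By GENCODE M21 on the same build, Car1 (chr3:14766216-14808368, minus strand) and Car2 (chr3:14886273-14900770, plus strand) lie near each other on chromosome 3, and Scnn1g (chr7:121734479-121768475) and Scnn1b (chr7:121865038-121918514), both on the plus strand, on chromosome 7. Aqp8 lies at chr7:123462291-123468004, Car4 at chr11:84957786-84966044, Cftr at chr6:18170687-18322768, Scnn1a at chr6:125320659-125344943, Best2 at chr8:85007202-85014531 and Aqp4 at chr18:15389496-15410982. All 10 are protein-coding genes, and the deposited counts are given per gene symbol.

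Library totals were 3052940 to 10587555 counts, and the antibody groups, at 6139216 counts or more, were the deepest. A table of the whole series carries the same counts, but 16 of its 24 column names give another group than the sample file with the same values. Groups were taken from the sample files. By these, summed T cell markers were 9.53 to 12.7 CPM (counts scaled to library size) in Normal and at least 40.2 CPM in every library that had received T cells. In raw counts, the same 6 genes spanned 35 to 68 in Normal by the sample files and would span 35 to 495 by the table's names. The antibody libraries of unsure label are replicates 3 and 4 of Isotype with replicates 1 and 2 of anti-TNF: the labellings differ on them, and T cell counts do not separate those groups. Vehicle replicate 4 and Isotype replicate 1 held 7555 and 5546 CPM of pancreas transcripts, against at most 441 CPM in the 22 other libraries. Results that rest on any of these libraries are given with and without them where the call changes.

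In untreated colon the carbonic anhydrases and Aqp8 were the most abundant of the 10. Per kilobase of exon, the Normal level (mean ± SD, n = 4 here and in all groups) was 1985 ± 304 CPM for Car1, 1162 ± 111 for Car4, 566 ± 166 for Aqp8 and 553 ± 103 for Car2. Aqp8 and Car2 did not differ beyond their spread. Scnn1a followed at 70.5 ± 16.5, then Aqp4 at 51.4 ± 17.3 and Best2 at 47.8 ± 15.9, and Aqp4 and Best2 did not differ beyond their spread. The lowest levels per kilobase were those of Cftr at 12.8 ± 2.72, Scnn1b at 10.98 ± 5.61 and Scnn1g at 3.80 ± 1.08. Thus the 3 subunits of ENaC were not equally abundant as RNA: Scnn1b stood at 15.5% ± 6.31 and Scnn1g at 5.74% ± 2.71 of Scnn1a per kilobase.

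**Figure D1:**
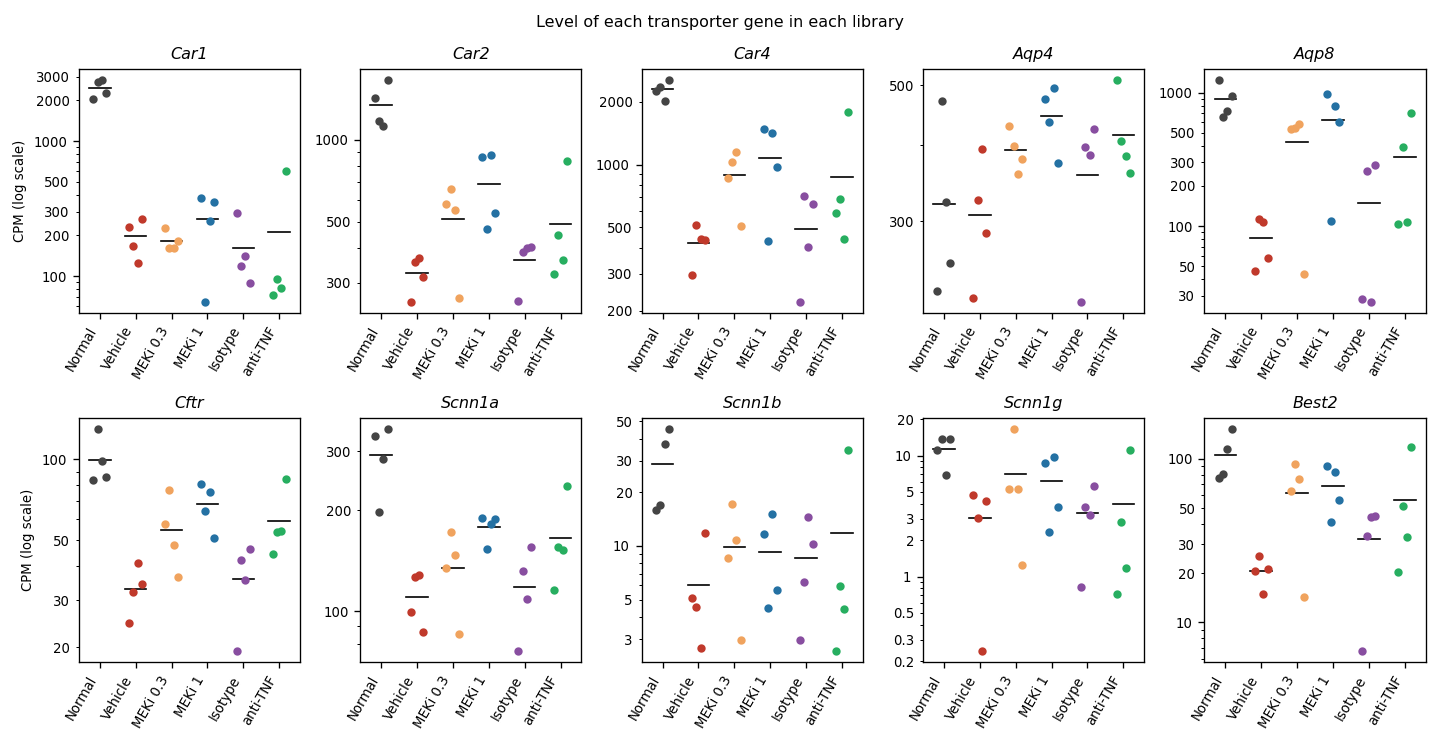
CPM of each of the 10 genes on a log axis (whose range differs between panels), with 1 point per library in the 6 groups and a line at the group mean. Normal lies above all 5 groups with T cells for Car1, Car2 and Car4, while Aqp4 shows no such gap.

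With T cell colitis and vehicle, 8 of the 10 genes fell against Normal, and none rose. Across all genes tested, 23.3% fell and 23.1% rose in this comparison by the same rule, an adjusted p under 0.05 in edgeR's quasi-likelihood test. The 8 were Car1, Car2, Car4, Aqp8, Cftr, Scnn1a, Scnn1b and Best2. Scnn1g and Aqp4 did not pass. The median log2 fold change of the 10 was -2.20, beside 0.00 over all genes, a value that the scaling of the libraries holds near 0. The 10 genes were chosen with earlier results of these data known, so here and below their shares are no independent test. For 9 of the 10, all but Aqp4, no Vehicle library reached the lowest Normal library, which was so for 20.1% of all genes.

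All 3 carbonic anhydrases fell. Car1 stood at 2061, 2754, 2842 and 2253 CPM in the Normal libraries (replicates 1 to 4 in order, here and below) and at 232, 167, 126 and 265 CPM in Vehicle. Its Vehicle mean was 7.97% of the Normal mean, a fitted log2 fold change of -3.70 ± 0.66 (SE; edgeR, adjusted p = 0.000226). No other of the 10 genes had a lower fitted value. Car4 went from 2247, 2338, 2016 and 2540.1 CPM to 298, 516, 441 and 434 CPM, a log2 fold change of -2.48 ± 0.44 (edgeR, adjusted p = 0.000199). Car2 went from 1424, 1165, 1118 and 1653 CPM to 256, 357, 369.5 and 316 CPM, a change of -2.09 ± 0.30 (edgeR, adjusted p = 1.86e-05). For each enzyme the 2 sets of values lay far apart, and no Vehicle library came near the lowest Normal one. The 2 cytosolic enzymes did not move in proportion: per kilobase, Car1 stood at 2.64 to 4.94 times Car2 in Normal and at 0.662 to 1.76 times in Vehicle, and no library with T cells exceeded 2.22 times.

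The 2 water channels behaved differently. Aqp8 was at 1245, 661, 731 and 943 CPM in Normal and at 46.1, 112, 107 and 57.5 CPM in Vehicle, 11.3-fold lower by the fit (log2 fold change -3.50 ± 0.94, edgeR, adjusted p = 0.00558). Aqp4 was at 231, 472, 323 and 256 CPM in Normal and at 225, 325, 394 and 287 CPM in Vehicle, and these ranges overlap almost fully. Its log2 fold change was -0.10 ± 0.22 (edgeR, adjusted p = 0.74), with a 95% interval of -0.52 to 0.33, which leaves out a change as large as that of any of the 8 genes that fell. Per kilobase, Aqp8 exceeded Aqp4 by 5.52 to 21.2 times in Normal, and stood at 0.790 to 1.36 times Aqp4 in Vehicle.

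Of the channels that release anions, Cftr was at 83.8, 129, 98.4 and 85.6 CPM in Normal and 24.7, 32.1, 41.2 and 34.3 CPM in Vehicle, and Best2 at 76.2, 80.6, 115 and 152 and 20.7, 25.4, 14.9 and 21.3 CPM. Both fell, Cftr by 1.62 ± 0.26 and Best2 by 2.41 ± 0.61 on the log2 scale (edgeR, adjusted p = 5.40e-05 and 0.00362). For both, the 4 Vehicle libraries were all below the 4 Normal ones.

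All 3 ENaC subunits were lower in each Vehicle library than in any Normal library, and 2 of them fell by the test. Scnn1a, the alpha subunit, was at 334, 198, 284 and 349 CPM in Normal and 99.4, 126, 128 and 86.8 CPM in Vehicle (log2 fold change -1.44 ± 0.25, edgeR, adjusted p = 9.60e-05). Scnn1b, the beta subunit, was at 15.8, 17.0, 37.5 and 45.2 and 5.12, 4.55, 2.68 and 11.8 CPM (-2.32 ± 0.75, edgeR, adjusted p = 0.0165). Scnn1b no longer passed once Normal replicate 4 or Vehicle replicate 3 was dropped, and its highest adjusted p was 0.0534. Scnn1g, the gamma subunit, at 11.04, 13.8, 6.91 and 13.8 and 4.69, 3.03, 0.244 and 4.21 CPM, missed the threshold (-1.92 ± 0.80, edgeR, adjusted p = 0.0531). It passed under 6 of 12 other settings, DESeq2 and limma-voom among them, and under none of the 8 fits that left out 1 library (adjusted p from 0.000210 to 0.115 and from 0.0533 to 0.131). Its value in Vehicle replicate 3 rests on 1 count, so the depth limits what can be said of this subunit.

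**Figure D2:**
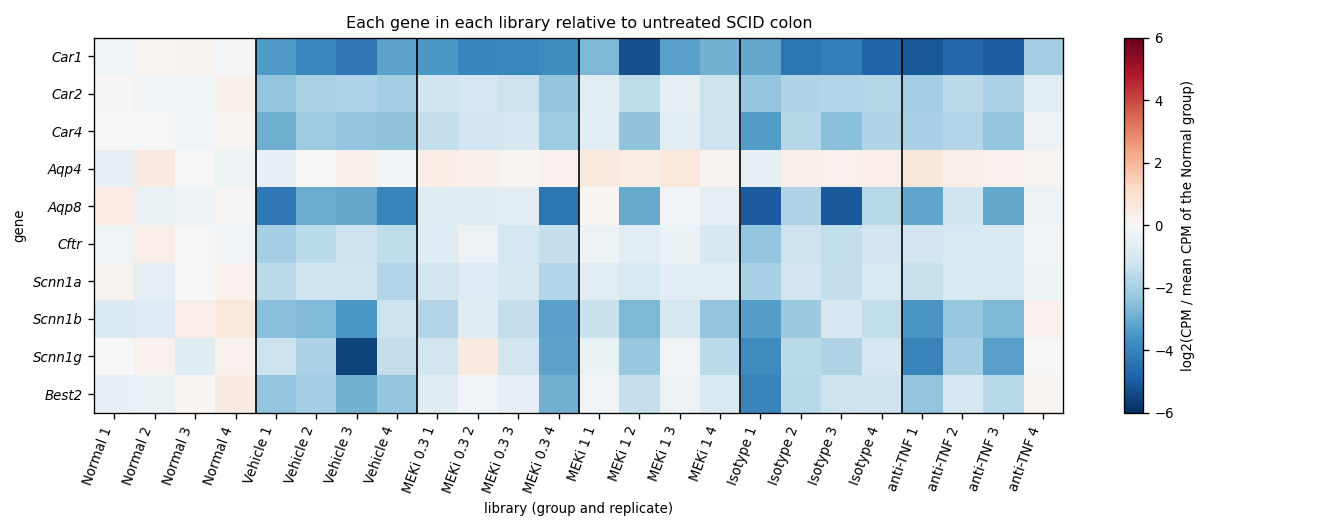
Heat map of the log2 ratio of each library's CPM to the mean of the Normal group, with genes in rows and the 24 libraries in columns by group. Car1 is blue in all 20 libraries with T cells, least so in anti-TNF replicate 4, and Aqp4 is pale throughout. MEKi 0.3 replicate 4 and anti-TNF replicate 4 differ from the rest of their groups.

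In bulk tissue, fewer cells of a type and less RNA per cell cannot be told apart, so the markers of the colon's cells are given beside these falls. The sum of 8 epithelial markers (such as Epcam and Krt8) was 17230.3 to 22600.3 CPM in Normal and 17184 to 23789 CPM in Vehicle. Of the 8, Cldn7 rose and Cdh1 fell, and the median log2 fold change was -0.05. Per 1000 CPM of these markers, the Vehicle mean was 8.20% of Normal for Car1, 8.91% for Aqp8, 18.4% for Car4 and 38.0% for Scnn1a, close to the values of 7.97, 9.01, 18.5 and 37.8% by CPM alone. Relative to these 8 markers, the falls of the named genes were thus about as large as by CPM. The mean marker sum was alike in both groups, at 19826 CPM in Normal and 19847 CPM in Vehicle. Markers of surface colonocytes summed to 5288 to 7249 CPM in Normal and 3459 to 3853 CPM in Vehicle. They did not move as a block: of 7, 2 rose and 3 fell by the test. Krt20, a keratin of the differentiated surface, was among those that rose (0.51 ± 0.20). Slc26a3, the chloride and bicarbonate exchanger, was among those that fell (-3.49 ± 0.62). Both were named after their values were seen. Slc26a3 and Guca2a, which also fell, are in this sum and in the transport lists below too.

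Other cell types also moved. Summed goblet cell markers were 12998 to 16609 CPM in Normal and 4777 to 7358 CPM in Vehicle, with 4 of 7 lower and 2 higher by the test. The higher ones include Clca1, a symbol that RefSeq lists for a goblet cell gene formerly called Clca3 and, as an older name, for Clca3a1; the files list Clca3 too and do not say which they hold. Summed smooth muscle markers were 6283 to 8051 CPM and 1408 to 3289 CPM, and 7 of 7 fell. Neutrophil markers summed to 1.31 to 5.60 CPM and 431 to 1087 CPM, and macrophage markers to 502 to 582 CPM and 2371 to 3971 CPM. The posterior Hox genes, which mark position along the gut, summed to 539 to 616 CPM in Normal and 163 to 355 CPM in Vehicle, and 5 of 5 tested fell (median log2 fold change -2.09). No marker of the epithelium, goblet cells, smooth muscle or macrophages that the files list was at 0 throughout a group, while 1 of 5 neutrophil markers and 2 of 6 T cell markers were at 0 in all Normal libraries. The part of cell makeup or of the stretch of colon sampled in the falls of the 10 genes was not tested.

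Against the same 4 Normal libraries, the control antibody group gave the same 8 calls. In Isotype against Normal 8 of the 10 genes fell and none rose, where 20.3% of all genes fell and 20.9% rose. The log2 fold changes were -4.01 ± 0.67 for Car1, -2.64 ± 0.90 for Aqp8, -2.25 ± 0.44 for Car4, -1.93 ± 0.30 for Car2, -1.81 ± 0.71 for Scnn1b, -1.75 ± 0.58 for Best2, -1.50 ± 0.26 for Cftr and -1.35 ± 0.25 for Scnn1a. Aqp4 again did not pass (0.12 ± 0.22, edgeR, adjusted p = 0.682). Scnn1g had a log2 fold change of -1.78 ± 0.76 (edgeR, adjusted p = 0.0646). Isotype replicate 1, the library with pancreas transcripts, was the lowest of its group for 8 of the 10 genes. Without it, 5 genes fell: Car1, Car2, Car4, Cftr and Scnn1a. Scnn1b was also lost without Normal replicate 3 or 4 or Isotype replicate 2 or 4, Aqp8 without Normal replicate 1, Isotype replicate 3 or the 4 antibody libraries of unsure label, and Best2 without Normal replicate 4. Aqp8 was uneven among the Isotype libraries, at 28.4, 256, 27.2 and 286 CPM: replicates 1 and 3 were far below replicates 2 and 4. Markers moved with these falls too: 7 of 7 smooth muscle markers, 4 of 7 goblet cell markers and 2 of 5 posterior Hox genes fell, and 6 of 6 T cell and 5 of 5 neutrophil markers rose. Summed, the Isotype libraries held 1343 to 2320.0 CPM of smooth muscle, 3072 to 10477 CPM of goblet cell, 300.4 to 998 CPM of neutrophil and 259 to 481 CPM of posterior Hox markers. Their part in the falls was not tested. As this comparison and the one of Vehicle share the Normal libraries, they are not independent.

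At 1 mg/kg of the MEK inhibitor, part of the set was higher than in Vehicle. Car2, Car4, Aqp8 and Cftr rose against Vehicle, 4 of the 10, where 6.08% of all genes rose. None of the 10 fell, beside 4.51% of all genes. The 10 fitted log2 fold changes were all above 0, from 0.49 for Car1 to 2.98 for Aqp8, with a median of 1.06 beside 0.00 over all genes. In Car2, Cftr, Scnn1a and Best2 every MEKi 1 library exceeded every Vehicle library, which was so for 8.35% of all genes.

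Aqp8 had the largest fitted rise. It was at 978, 109, 789 and 604 CPM in MEKi 1, beside a highest Vehicle value of 112 CPM, 7.91-fold higher by the fit (log2 fold change 2.98 ± 0.92, edgeR, adjusted p = 0.0456). Replicates 1 and 3 lay within the Normal range, replicate 4 just below it, and replicate 2 was among the Vehicle values. In Car4, replicate 2 was again among the Vehicle values and no library reached the Normal range, at 1481, 432, 1419 and 975 CPM (1.40 ± 0.43, edgeR, adjusted p = 0.0432). Car2 was at 864, 471, 880.4 and 539.7 CPM (1.12 ± 0.30, edgeR, adjusted p = 0.0251), and Cftr at 81.0, 64.3, 75.5 and 51.0 CPM (1.08 ± 0.26, edgeR, adjusted p = 0.0185). For these 2 genes even replicate 2 lay above all Vehicle libraries.

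Best2 and Scnn1a had no overlap with Vehicle either but missed the threshold. Best2 was at 91.0, 41.3, 83.2 and 56.4 CPM (1.77 ± 0.61, edgeR, adjusted p = 0.0638) and Scnn1a at 189, 153, 182 and 188 CPM (0.74 ± 0.25, edgeR, adjusted p = 0.0539). The values of the other ENaC subunits overlapped those of Vehicle. Scnn1b, at 11.6, 4.49, 15.1 and 5.67 CPM, and Scnn1g, at 8.67, 2.35, 9.69 and 3.78 CPM, had log2 fold changes of 0.65 ± 0.78 and 1.04 ± 0.82 (edgeR, adjusted p = 0.596 and 0.405). Aqp4, at 475, 436, 495 and 373 CPM, had a log2 fold change of 0.57 ± 0.22 (edgeR, adjusted p = 0.0821).

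Car1 did not pass in this comparison. It was at 380.2, 64.8, 257 and 352 CPM in MEKi 1, 10.6% of the Normal mean, with a log2 fold change against Vehicle of 0.49 ± 0.60 (edgeR, adjusted p = 0.601; 95% interval -0.68 to 1.66). Replicate 2, at 64.8 CPM, was the lowest of all 24 libraries.

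**Figure D3:**
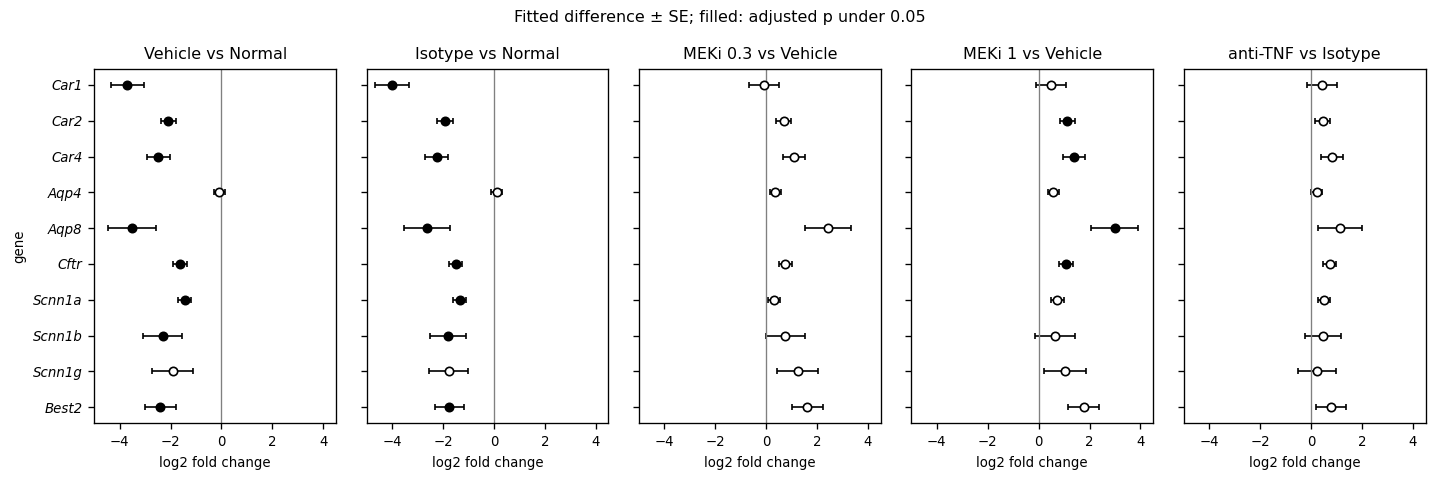
Fitted log2 fold change (horizontal axis) ± SE for each gene in 5 comparisons, with filled points for an adjusted p under 0.05. All but Aqp4 and Scnn1g are filled against Normal in Vehicle and Isotype, 4 genes are filled for MEKi 1 against Vehicle, and none for MEKi 0.3 or anti-TNF.

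The calls at 1 mg/kg rested on single libraries. None of the 10 passed when replicate 1 or 4 of Vehicle, or replicate 1 or 3 of MEKi 1, was left out, and of all genes 324, 128, 43 and 220 then passed in turn. Car2 and Cftr passed without Vehicle replicate 2 or MEKi 1 replicate 4, and Car2, Cftr and Aqp4 without Vehicle replicate 3. Without MEKi 1 replicate 2, which was the lowest of its group for 8 genes, 6 passed. Only Cftr passed without both libraries rich in pancreas transcripts, and only Car2 and Cftr without the 4 antibody libraries of unsure label, which enter this fit through the shared spread. With DESeq2, 6 of the 10 passed, and with limma-voom and sample weights 7, beside 2234 and 4807 of all genes (1565 in edgeR).

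Markers moved in the same comparison. Neutrophil markers summed to 18.02 to 149 CPM in MEKi 1, and 5 of 5 fell against Vehicle. Of 6 T cell markers, 4 fell. Goblet cell markers summed to 10107 to 12308 CPM, with 2 of 7 higher by the test. Posterior Hox genes summed to 417 to 565 CPM, above all 4 Vehicle libraries, and 0 of 5 passed (edgeR). Epithelial markers summed to 20808 to 27162 CPM, and 0 of 8 passed. Surface colonocyte markers summed to 3295 to 5279 CPM, with replicate 2 the lowest, and 0 of 7 passed. Per 1000 CPM of epithelial markers, Aqp8 stood at 57.2% of Normal in MEKi 1 and 8.91% in Vehicle, Car4 at 38.4% and 18.4%, and Car2 at 42.9% and 24.3%. The part of the other markers in the rise was not tested.

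At 0.3 mg/kg, 0 of the 10 genes passed against Vehicle in edgeR, with 5 at an unadjusted p under 0.05, and 0.00677% of all genes (1 gene) passed in either direction. DESeq2 also passed 0 of the 10, beside 92 of all genes, and limma-voom with sample weights 6, beside 3303. Those with the 5 unadjusted p were Cftr (0.75 ± 0.26), Aqp8 (2.41 ± 0.90), Best2 (1.61 ± 0.60), Car4 (1.09 ± 0.43) and Car2 (0.68 ± 0.29). The MEKi 0.3 libraries were split. Aqp8 was at 537, 539.5, 577 and 43.9 CPM and Best2 at 63.5, 93.1, 75.4 and 14.4 CPM: replicates 1 to 3 were above every Vehicle library, and replicate 4 was below every Vehicle library. Replicate 4 was the lowest of its group for 8 genes. It also held 626 CPM of neutrophil markers, against 56.6 to 168 CPM in the other 3, and 184 CPM of posterior Hox genes, against 507 to 578 CPM. Without it, Car2, Cftr and Best2 passed, and 1130 of all genes. Deviations of same-numbered libraries of these 2 groups were weakly correlated (0.123 to 0.183). A fit of these groups alone with the replicate number as a block was added after seeing the data. In it 1 gene of the 10, Car4, passed, and 405 of all genes.

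Car1 at 0.3 mg/kg was at 228, 160.1, 163 and 182 CPM, within the Vehicle range (log2 fold change -0.08 ± 0.60, edgeR, adjusted p = 0.956). In this gene replicate 4 did not stand apart. The remaining 4 genes had log2 fold changes of 0.36 ± 0.22 for Aqp4, 0.31 ± 0.24 for Scnn1a, 0.74 ± 0.77 for Scnn1b and 1.24 ± 0.80 for Scnn1g.

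Anti-TNF against Isotype also passed 0 of the 10 in edgeR, DESeq2 and limma-voom, with 1 at an unadjusted p under 0.05 in edgeR. Of all genes 0.0203% (3 genes) passed in either direction in edgeR, 77 in DESeq2 and 45 in limma-voom. The gene with the unadjusted p was Cftr, at 44.6, 53.5, 54.1 and 84.7 CPM in anti-TNF and 19.5, 42.2, 35.7 and 46.3 CPM in Isotype (0.73 ± 0.25, edgeR, adjusted p = 0.292). The 10 fitted values were all above 0, with a median of 0.49. Anti-TNF replicate 4 was the highest of its group for 9 genes. Car1 was at 72.8, 95.1, 81.1 and 605 CPM and Aqp8 at 104, 390.2, 108 and 706 CPM in anti-TNF. In Car1, replicate 4 was the highest of all 20 libraries with T cells. Without this library the fitted values of Car1, Scnn1b and Scnn1g against Isotype turned below 0, to -0.92, -0.95 and -1.05. Replicate 4 held 41.3 CPM of neutrophil markers and 17128 CPM of goblet cell markers, against 111 to 449 CPM and 8089.6 to 11393 CPM in the other 3.

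The difference between the MEKi 1 effect and the anti-TNF effect was tested directly. Among the 10 genes 0 passed in edgeR, 0 had an unadjusted p under 0.05, and 0.0135% of all genes (2 genes) passed. DESeq2 gave 0, beside 7 of all genes, and limma-voom 2 (Car2 and Car4), beside 1288. The largest difference was that of Aqp8, 1.83 ± 1.22 on the log2 scale with a 95% interval of -0.55 to 4.22. A larger response of the 10 genes to the MEK inhibitor than to the antibody was therefore not shown in edgeR, and the wide intervals do not show that the responses were alike.

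**Figure D4:**
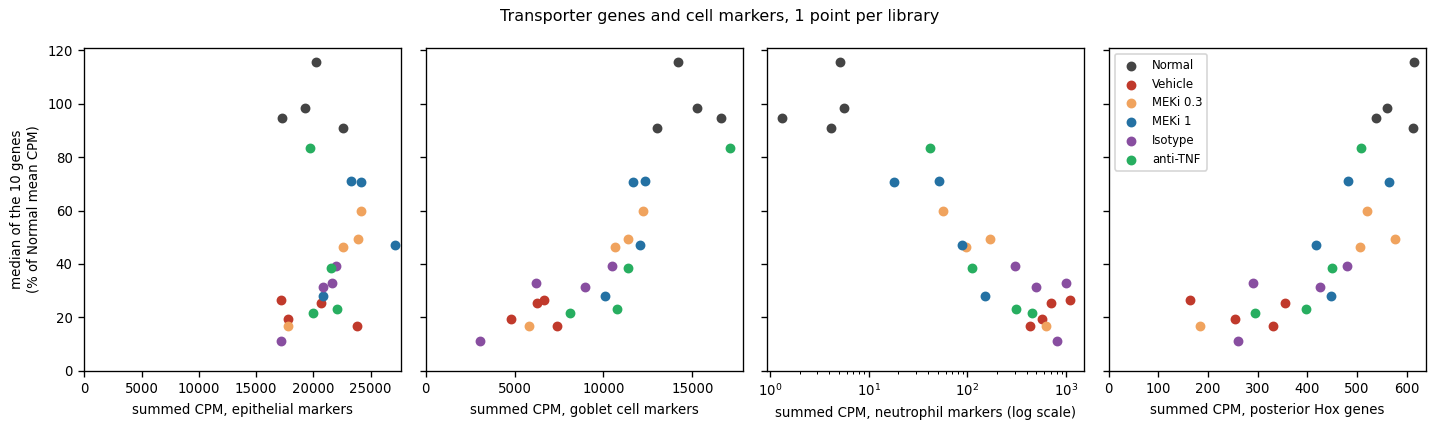
Median of the 10 genes in each library (vertical axis, % of the Normal mean CPM) against the summed CPM of 4 marker lists (horizontal axes; log scale for neutrophils), with 1 point per library coloured by group. Isotype replicate 1, with the lowest median (11.05%), has the lowest goblet cell sum (3072 CPM), and epithelial marker sums span 17184 to 27163 CPM over all libraries.

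Over the 24 libraries, the median of the 10 genes as a percentage of Normal ranged from 11.05% in Isotype replicate 1 to 115.5% in Normal replicate 4. Among libraries with T cells, anti-TNF replicate 4 (83.3%) and MEKi 1 replicates 3 and 1 (70.9% and 70.6%) were the highest. Both MEK inhibitor groups and the anti-TNF group also held libraries in or near the Vehicle range of 16.7 to 26.7%. These were MEKi 0.3 replicate 4 at 16.6%, MEKi 1 replicate 2 at 27.9%, and anti-TNF replicates 1 and 3 at 21.6% and 23.2%. Anti-TNF replicates 1, 2 (38.6%) and 3 lay within the range of their own control group, Isotype, of 11.05 to 39.1%. The plot of these medians against marker sums shows this spread within groups.

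Set against Normal, the treated groups differed by gene. All 20 libraries with T cells were below all 4 Normal libraries in Car1, Car2 and Car4. The highest Car1 value among the 20 was 605.0 CPM, and the lowest Normal value was 2061 CPM. Group means of Car1 were 7.97, 7.39, 10.6, 6.49 and 8.62% of Normal in Vehicle, MEKi 0.3, MEKi 1, Isotype and anti-TNF. Without anti-TNF replicate 4 the last was 3.35%. For Aqp8 the same means were 9.01, 47.4, 69.3, 16.7 and 36.5%, and 3 of the 20 libraries reached the Normal range. Here the anti-TNF mean was 22.4% without replicate 4. For Aqp4 they were 96.0, 122, 139, 111 and 129%.

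By the test, 2 of the 10 genes were lower in MEKi 1 than in Normal, Car1 (-3.21 ± 0.64, edgeR, adjusted p = 0.00268) and Car2 (-0.96 ± 0.29, edgeR, adjusted p = 0.0336), beside 4.79% of all genes. Another 5 had an unadjusted p under 0.05, so a miss does not show a level equal to Normal. Only Car1 passed without Normal replicate 1, Normal replicate 4, MEKi 1 replicate 2 or MEKi 1 replicate 4, and 4 genes passed without Normal replicate 2 (Aqp4, higher, among them). Without both libraries rich in pancreas transcripts Scnn1a passed too. In MEKi 0.3, 5 of the 10 were lower (Car1, Car2, Car4, Cftr and Scnn1a), beside 9.06% of all genes, and without MEKi 0.3 replicate 4 or Normal replicate 2 Car1, Car2 and Scnn1a were. In anti-TNF the same 5 were lower, beside 9.89% of all genes. There the count was 8 without anti-TNF replicate 4, 3 without anti-TNF replicate 2, and 2 without anti-TNF replicate 1, anti-TNF replicate 3 or Normal replicate 4. It was 1 (Car1) without the 4 antibody libraries of unsure label. In the edgeR fit of all 24 libraries, none of the 10 was called higher than Normal in any group. Of all genes, 10.8% were in MEKi 0.3, 8.06% in MEKi 1 and 12.5% in anti-TNF. With limma-voom, 1 of the 10, Aqp4, was called higher than Normal in MEKi 1 and in anti-TNF. These comparisons share the Normal libraries.

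Among 58 further genes of colonic transport, put in 6 lists, 45 had enough counts to be tested. In Vehicle against Normal 31 of the 45 fell and 4 rose, where 23.3% of all genes fell and 23.1% rose, with a median log2 fold change of -1.01. Sodium absorption and its regulators had 11 of 14 lower and 1 higher. Among the former were Nr3c2, the aldosterone receptor (-1.88 ± 0.29; 40.7 ± 9.14 against 146 ± 11.1 CPM), the sodium pump subunit Atp1b1 (-1.12 ± 0.18), and the sodium and proton exchanger Slc9a2 (-1.91 ± 0.37). Of the anion exchangers, cotransporters and chloride channels, 7 of 10 fell and 1 rose. The sulphate carrier Slc26a2 (-3.26 ± 0.50; 131 ± 6.99 against 1218 ± 123 CPM), the bicarbonate cotransporter Slc4a4 (-2.26 ± 0.40) and the anion exchanger Slc4a2 (-1.05 ± 0.16) fell, and Clca1, a symbol of unsure gene in these files as given above, rose (1.99 ± 0.25; 20.5 ± 4.51 against 5.01 ± 0.370 CPM).

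In 3 of the other 4 lists no gene rose. Of the potassium channels and pump 5 of 6 fell, among them Kcnk5 (-1.50 ± 0.26) and Kcne3 (-1.42 ± 0.25). In guanylin and secretagogue signalling 3 of 6 fell, with the gut hormone guanylin, Guca2a (-3.06 ± 0.63; 130.0 ± 33.6 against 1047 ± 159 CPM), its receptor Gucy2c (-0.88 ± 0.15) and the receptor Vipr1 (-1.01 ± 0.20). Both tested further aquaporins fell, Aqp1 (-1.42 ± 0.39), which marks small vessels, and Aqp11 (-1.60 ± 0.32). Of 7 further carbonic anhydrases, 3 fell and 2 rose. Car3 (-3.54 ± 1.01; 15.7 ± 6.45 against 178 ± 20.9 CPM), an enzyme of muscle and fat, was among the former, and Car13, a cytosolic enzyme, among the latter (0.83 ± 0.17; 31.9 ± 3.08 against 17.4 ± 1.50 CPM). Isotype against Normal gave 27 lower and 2 higher of the 45, where 20.3% and 20.9% of all genes were.

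**Figure D5:**
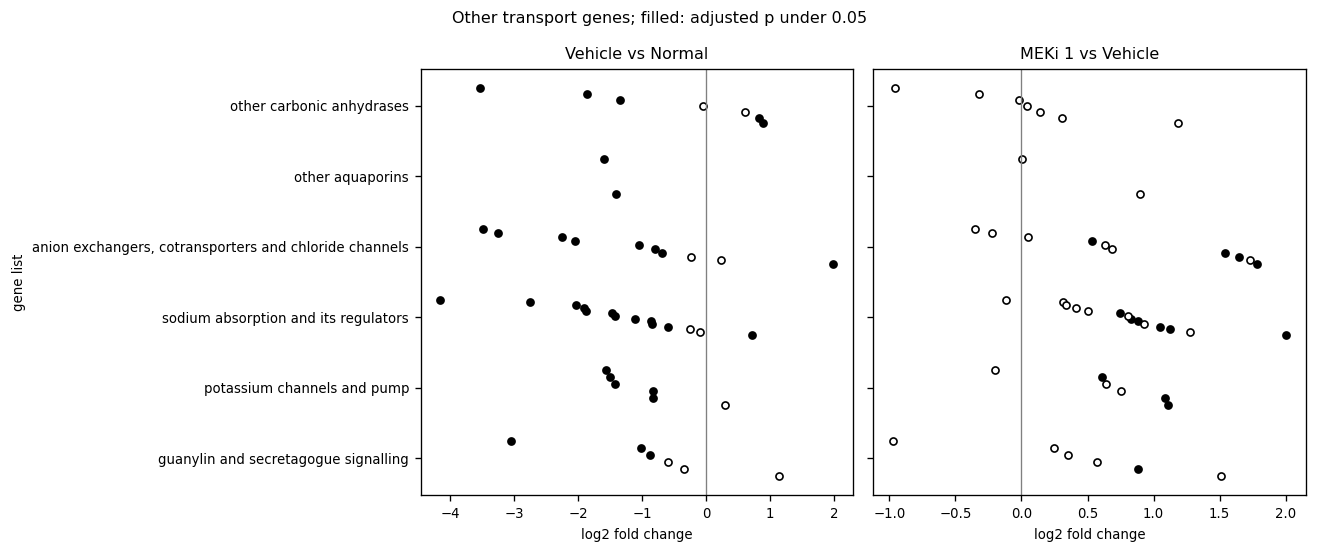
Log2 fold change (horizontal axis) of the 45 tested transport genes by list, for Vehicle against Normal and MEKi 1 against Vehicle, with filled points for an adjusted p under 0.05. Most filled points on the left lie below 0 (31 of 35), and all 14 on the right lie above 0.

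In MEKi 1 against Vehicle 14 of the 45 rose and none fell, where 6.08% of all genes rose and 4.51% fell, with a median log2 fold change of 0.63. They included 6 of 14 in sodium absorption, among them the channel regulator Nedd4l (0.75 ± 0.19), Nr3c2 (1.05 ± 0.29) and the short-chain fatty acid carrier Slc5a8 (0.83 ± 0.25). Another 4 of 10 were anion carriers, Slc26a2 (1.78 ± 0.47), Slc4a4 (1.54 ± 0.40), Slc4a2 (0.53 ± 0.16) and the chloride channel Ano1 (1.65 ± 0.52). The potassium channel genes Kcne3 (1.09 ± 0.25), Kcnk5 (1.11 ± 0.26) and Kcnq1 (0.61 ± 0.18) rose too, as did Vipr1 (0.88 ± 0.20). As with the 10 genes, these calls rested on single libraries: 0 of the 45 passed when Vehicle replicate 4 or MEKi 1 replicate 1 or 3 was left out. Leaving out replicate 1 or 2 of Vehicle left 2 and 7. Without both libraries rich in pancreas transcripts, 5 passed. In MEKi 0.3 against Vehicle and in anti-TNF against Isotype, 0 of the 45 passed in edgeR.

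Each of the 10 genes was also set beside 11086 genes with a mean of at least 5 CPM, by the root mean square difference in log2 CPM after both were centred on their mean over the 24 libraries. The closest to Car2 were Lpo (0.21) and Sord (0.22), to Car4 Cyp3a13 (0.28) and Cpe (0.29), and to Cftr Aldh1b1 (0.22) and Pccb (0.24). For Best2 they were Hsd11b2 (0.26) and Ramp1 (0.35). Thbs4 (0.22) was among the closest to Scnn1a. These distances compare with a median over all genes of 0.86 from Car2, 1.05 from Car4, 0.73 from Cftr, 0.66 from Scnn1a and 1.16 from Best2. Aqp8 was matched best by Acer1 (0.41) and Selenbp1 (0.46), and Aqp4 by Yipf6 (0.19) and Pla2g5 (0.20). Their medians over all genes were 1.78 and 0.47. Distances were larger for Car1, with Qpct (0.66) and Mettl7b (0.70), and for Scnn1b, with Foxp2 (0.59) and Sparcl1 (0.60). So were those for Scnn1g, with Chrdl1 (0.67) and Trp53inp1 (0.67). The medians of Car1, Scnn1b and Scnn1g were 1.68, 1.19 and 1.31. The genes also differed in their own spread (0.34 for Aqp4, 1.63 for Car1), so these distances do not rank the matches between genes. Among the 10 genes themselves, Car2 and Scnn1a lay closest to each other (0.33). Scnn1g was slightly nearer to Scnn1b (0.65) than to either of its best matches outside the set. This was not mutual, as Scnn1b lay nearer to Best2 (0.61) than to Scnn1g. These likenesses share the libraries and their groups and are given as a description.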

How the data were processed

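The authors deposited raw counts per gene symbol, 1 file per library, from poly(A) RNA fragmented with RNase III and read on an Ion Torrent instrument, per the labels' protocols. Per the submitters' processing notes, reads were placed on mm10. No aligner, counter or annotation is named in what was used here. Counts were tested with edgeR 4.0.16 (R 4.3.3): genes were filtered by filterByExpr, scaled by TMM and fitted with robust quasi-likelihood over all 24 libraries, and p-values were adjusted by Benjamini-Hochberg over 14773 genes at 0.05. The SE is the log2 fold change divided by the root of F. CPM are counts scaled to the library's total. DESeq2 1.42.0 and limma 3.58.1 served as alternatives, with other scalings, filters, samples and a replicate block. On simulated counts of Vehicle against Normal (14790 genes), 63% of 2-fold and 100% of 4-fold changes were recovered, with 9 false calls. The simulation gave all genes the same spread, changed none of low level and held no library that stood apart. It therefore does not measure recovery for genes as variable as Aqp8, Scnn1b or Scnn1g. The 36 pairs of replicates differed beyond counting noise (chi-square per gene 5.38 to 59.9). Same-numbered libraries share only a number in the labels. For MEKi 0.3 and Vehicle, the correlations of their deviations were 0.123 to 0.183 in all 4 pairs, above the limit of 0.1, and the paired value is given beside that comparison. The 10 genes, the marker lists and the transport lists were chosen with earlier results of these data known. Transport genes were named as the up to 4 per list with the smallest p among those past the threshold, and 1 of the genes so chosen is not reported here. Exon lengths came from GENCODE M21 and promoters from RefSeq.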

Additional observations from a re-analysis of the deposited data

Results flagged for a closer look

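In 4 of 60 sets of 4 libraries (10 genes in 6 groups), 1 library stood apart from the other 3 by Dixon's test at the 95% level, and chance gives about 1 in 20. Anti-TNF replicate 4 was high for Car1 (605.0 CPM) and for Scnn1b (34.3 CPM). Isotype replicate 1, a library with pancreas transcripts, was low for Car2 (257.7 CPM). MEKi 0.3 replicate 4 was low for Aqp8 (43.9 CPM).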

How the results depend on the processing

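The 13 other settings and the fits that left out 1 library kept the direction of every member called in the fit of all 24 libraries, except where the groups were taken from the series table's column names. Leaving out 1 library gave 7 to 8 members called for Vehicle against Normal, 5 to 8 for Isotype against Normal, 0 to 3 for MEKi 0.3 against Vehicle, 0 to 6 for MEKi 1 against Vehicle, 3 to 5 for MEKi 0.3 against Normal, 1 to 4 for MEKi 1 against Normal and 2 to 8 for anti-TNF against Normal, and 0 for anti-TNF against Isotype. For MEKi 1 against Vehicle the count of 4 became 7 with limma-voom or with only the groups compared, 2 with library size alone, with the replicate block or without the 4 antibody libraries of unsure label, and 1 with no filter or without both libraries rich in pancreas transcripts. Without the latter, Isotype against Normal had 5. With limma-voom, 6 members were called for MEKi 0.3 against Vehicle, 5 for MEKi 1 against Normal, 10 for anti-TNF against Normal and 2 for the difference between the MEKi 1 and anti-TNF effects. MEKi 1 against Normal had 5 with only the groups compared and 1 with no filter or with the replicate block, and anti-TNF against Normal had 3 with no filter and 1 without the 4 antibody libraries. The replicate block with only the groups compared, added after seeing the data, gave 1 for MEKi 0.3 against Vehicle, 1 (Aqp8) for anti-TNF against Isotype, 5 for MEKi 1 against Normal and 8 for anti-TNF against Normal. The cause of these shifts was not tested. Counts over all genes, the table's names left out, were 0 to 3303 for MEKi 0.3 against Vehicle, 43 to 4807 for MEKi 1 against Vehicle and 0 to 277 for anti-TNF against Isotype.

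Values not called in the fit of all 24 libraries changed sign more often, and the lowest and highest values with 1 library left out are given with them. Aqp4 against Normal was 0.16 and 0.0400 in Vehicle without Normal replicate 2 and Vehicle replicate 1 (lowest -0.25), and -0.12 and -0.00844 in Isotype without the 4 antibody libraries and Normal replicate 1 (highest 0.37). Car1 at 0.3 mg/kg against Vehicle was 0.0172 with limma-voom, 0.00120 with the transcript length offset, 0.0803 without the libraries rich in pancreas transcripts and 0.0803 without Vehicle replicate 4 (lowest -0.24). For anti-TNF against Isotype, limma-voom gave -0.30 for Car1, -0.0290 for Car4, -0.18 for Aqp8, -0.56 for Scnn1b and -1.26 for Scnn1g. The paired fit of these groups gave -0.20 for Car1 and -0.0985 for Scnn1g, and leaving out anti-TNF replicate 4 gave -0.92 for Car1, -0.95 for Scnn1b and -1.05 for Scnn1g. Their highest values with 1 library left out were 0.85, 0.89 and 0.61. Scnn1g was -0.12 without the libraries rich in pancreas transcripts and -0.10 without Isotype replicate 1.

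By the table's names no member was called in any comparison, and libraries of several groups are mixed by construction. The log2 values that changed sign were as follows. For Vehicle vs Normal the value was 0.0710 for Car1, 0.0645 for Scnn1a, 0.75 for Scnn1b and 0.21 for Best2. For Isotype vs Normal the value was -0.0322 for Aqp4. For MEKi 0.3 vs Vehicle the value was -0.92 for Car2, -1.22 for Car4, -0.92 for Aqp8, -0.45 for Cftr, -0.65 for Scnn1a, -1.96 for Scnn1b, -0.60 for Scnn1g and -1.05 for Best2. For MEKi 1 vs Vehicle the value was -2.43 for Car1, -0.77 for Car2, -0.92 for Car4, -0.54 for Aqp8, -0.40 for Cftr, -0.55 for Scnn1a, -1.47 for Scnn1b, -0.63 for Scnn1g and -1.02 for Best2. For MEKi 0.3 vs Normal the value was -0.0994 for Aqp4. For anti-TNF vs Normal the value was 0.11 for Scnn1b. For (MEKi 1 vs Vehicle) minus (anti-TNF vs Isotype) the value was -1.07 for Aqp8. Correlations of deviations in same-numbered libraries of anti-TNF and Isotype were 0.0879 to 0.341, not all above 0.1.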

Other observations

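Some transport genes outside the 10 stayed apart from Normal under treatment. In MEKi 1 against Normal, 9 of the 45 tested fell and 1 rose, where 4.79% of all genes fell and 8.06% rose. The exchangers Slc26a3 (-1.76 ± 0.57; 468 ± 241 against 1583 ± 354 CPM), Slc26a2 (-1.48 ± 0.47) and Slc9a3 (-1.23 ± 0.39) were among those that fell, as was Fxyd4, a regulator of the sodium pump (-2.88 ± 0.79; 3.46 ± 2.34 against 25.5 ± 5.40 CPM). Clca1 rose (1.64 ± 0.25; 15.6 ± 3.16 against 5.01 ± 0.370 CPM). In MEKi 0.3 against Normal 18 fell and 2 rose, where 9.06% and 10.8% of all genes did. In anti-TNF against Normal 14 fell and 2 rose, where 9.89% and 12.5% did. Clca1 rose in both (2.06 ± 0.25 and 1.60 ± 0.25). These comparisons share the Normal libraries.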
